A study of Homo sapiens with 6 samples.

Results

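The genes described here are BRCA1, BRCA2, BARD1, PALB2, RAD51AP1, FANCA, FANCD2, FANCI and XRCC2, 9 genes of the BRCA and Fanconi branch of homologous recombination repair. They were chosen by name, with earlier results of these data known. Every probe that the array files assign to one of them was taken apart from the others, which gave 13 probes of the 58201 on the array (9 of 43317 gene names). RNA was measured in BT474 cells, an established breast cancer line that is luminal, ER-positive and HER2-positive, to ask what stable expression of the long noncoding RNA NR2F1-AS1 changes in them. Control BT474 cells carried empty pcDNA3.1, BT474-Var1 cells carried pcDNA3.1 with the long variant 1 of NR2F1-AS1, and BT474-Var4 cells carried pcDNA3.1 with the short variant 4. Each group had 2 arrays, A and B, and all cells were grown in RPMI-1640 with FBS after nucleofection and antibiotic selection. The methods name pcDNA3.1/Hygro(+) as the backbone of variant 1 and pcDNA3.1-P2A-eGFP as that of variant 4, and do not say which of these empty plasmids the Control cells of the arrays carried. The transfected cells analyzed were colonies that survived selection, so variant, backbone and outgrowth of surviving cells cannot be told apart. Nothing says that arrays A and B came from separate cultures, and p-values then measure only the spread between these arrays, which may be technical.

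Homologous recombination copies an intact sister chromatid to mend a broken one, and it works mainly in S and G2 phase. BRCA1 and its RING partner BARD1 act early at the break, PALB2 bridges BRCA1 to BRCA2, BRCA2 acts after them on the exposed single strand, and RAD51AP1 and XRCC2 assist the strand exchange that follows. In the Fanconi pathway, FANCA is a subunit of the core complex that places ubiquitin on the paired proteins FANCD2 and FANCI at crosslinked DNA, after which the same recombination factors finish the repair. Inherited loss of BRCA1, BRCA2 or PALB2 raises the risk of breast cancer, and cells that lack these genes are sensitive to PARP inhibitors.

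All values are log2 processed Cy3 intensities less the array's 75th percentile, so that 0 marks that percentile. A probe is a spotted sequence, and values of different probes cannot be set against each other as levels of their genes. Arrays A and B of 1 or more groups both showed 31865 non-control probes well above background, and these were tested with limma. A difference was called at an adjusted p under 0.05 by the Benjamini-Hochberg method over these 31865 probes. Between 47.7% and 57.5% of the probes of an array were well above background, 0 spots were saturated, and the arrays of a group correlated at r = 0.98 to 0.987 across all probes. All 6 arrays lay on 1 slide, with both BT474-Var1 arrays in column 2 and the other arrays in column 1, so slide column and variant 1 cannot be told apart. The Control arrays lay in rows 1 and 2 and the arrays of both variants in rows 3 and 4. Slide row and either difference from Control cannot be told apart. The labels were checked on the transfected RNA: the NR2F1-AS1 probe A_19_P00320140 was at -0.42 and -0.51 on the BT474-Var1 arrays and not above background on any other, whereas A_24_P51080 was at 1.67 and 1.5 on the BT474-Var4 arrays and at -4.25 or lower on the others. Control B, unlike Control A, was well above background on A_24_P51080 (-4.25), A_22_P00006111 (-4.16) and A_22_P00006112 (-3.61). All 9 luminal markers examined, among them ERBB2, ESR1 and GATA3, were well above background on all 6 arrays.

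All probe positions are those of the file headers' build, hg19. The 4 probes below are shown as spotted, 5' to 3', because the groups ranked differently on them: BARD1 was lowest in BT474-Var4 cells, PALB2 and FANCD2 in BT474-Var1 cells, and FANCI overlapped between them. None of the 13 member probes shares a run of 20 bases with any other probe of the array.
BARD1 A_23_P67771 (chr2:215593660-215593719, minus strand): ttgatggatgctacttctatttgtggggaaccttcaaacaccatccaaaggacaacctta
PALB2 A_23_P129569 (chr16:23625336-23625395, minus strand): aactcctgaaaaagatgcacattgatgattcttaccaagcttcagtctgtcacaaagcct
FANCD2 A_33_P3257808 (chr3:10114581-10114640, plus strand): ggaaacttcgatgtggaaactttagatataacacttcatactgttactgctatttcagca
FANCI A_32_P95729 (chr15:89858528-89858587, plus strand): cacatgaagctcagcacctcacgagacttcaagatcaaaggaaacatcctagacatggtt
The other 9 probes were A_23_P207400 of BRCA1 (chr17:41196422-41196481, minus), A_23_P99452 of BRCA2 (chr13:32972996-32973055, plus), A_23_P99292 of RAD51AP1 (chr12:4668182-4668241, plus), A_33_P3241190 of XRCC2 (chr7:152343931-152343990, minus), 3 of FANCA and 2 more of FANCD2, which are placed where they are described.

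All 13 member probes were well above background on all 6 arrays, with processed intensities of 15 to 1290 units. The group means of every member probe were highest in Control cells. In 10 probes the order was Control, BT474-Var1, BT474-Var4, and in the remaining 3, PALB2 and FANCD2 probes A_23_P143994 and A_33_P3257808, it was Control, BT474-Var4, BT474-Var1. Both steps of the order were called in FANCA A_23_P206441 and in FANCD2 A_23_P143994, and in BRCA2 and FANCD2 A_33_P3257808 neither was. The arrays measure RNA of the whole culture, in which fewer cells that express a gene and less RNA per cell cannot be told apart.

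Counted over probes, 6 of 13 member probes, of 4 genes, were called lower in BT474-Var1 than in Control cells (PALB2, 3 of FANCA, FANCD2 and FANCI), where 20.3% of all tested probes were called lower. limma called 0 member probes higher, at an adjusted or an unadjusted p under 0.05, where 14.1% of all tested probes were called higher. A one-way analysis of variance with the same adjustment also called 0. In 11 of 13 probes both BT474-Var1 arrays lay below both Control arrays, which held for 40.5% of all tested probes. The median log2 difference of the member probes was -0.30, from -0.64 to -0.06, beside -0.04 over all tested probes. In BT474-Var4 cells 10 of 13 member probes, of 7 genes, were called lower (BRCA1, BARD1, RAD51AP1, XRCC2, FANCI, 3 of FANCA and 2 of FANCD2) against 14.3% of all tested probes, and again 0 higher by either test or at an unadjusted p under 0.05, against 9.86%. Both BT474-Var4 arrays lay below both Control arrays in 12 of 13 probes, against 42.6% of all tested probes, and the median was -0.41, from -1.02 to -0.11, beside -0.08 over all. The 2 comparisons share the Control arrays. The medians of the members were -0.27 and -0.39 after quantile normalization and -0.19 and -0.26 with normexp background correction.

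**Figure D1:**
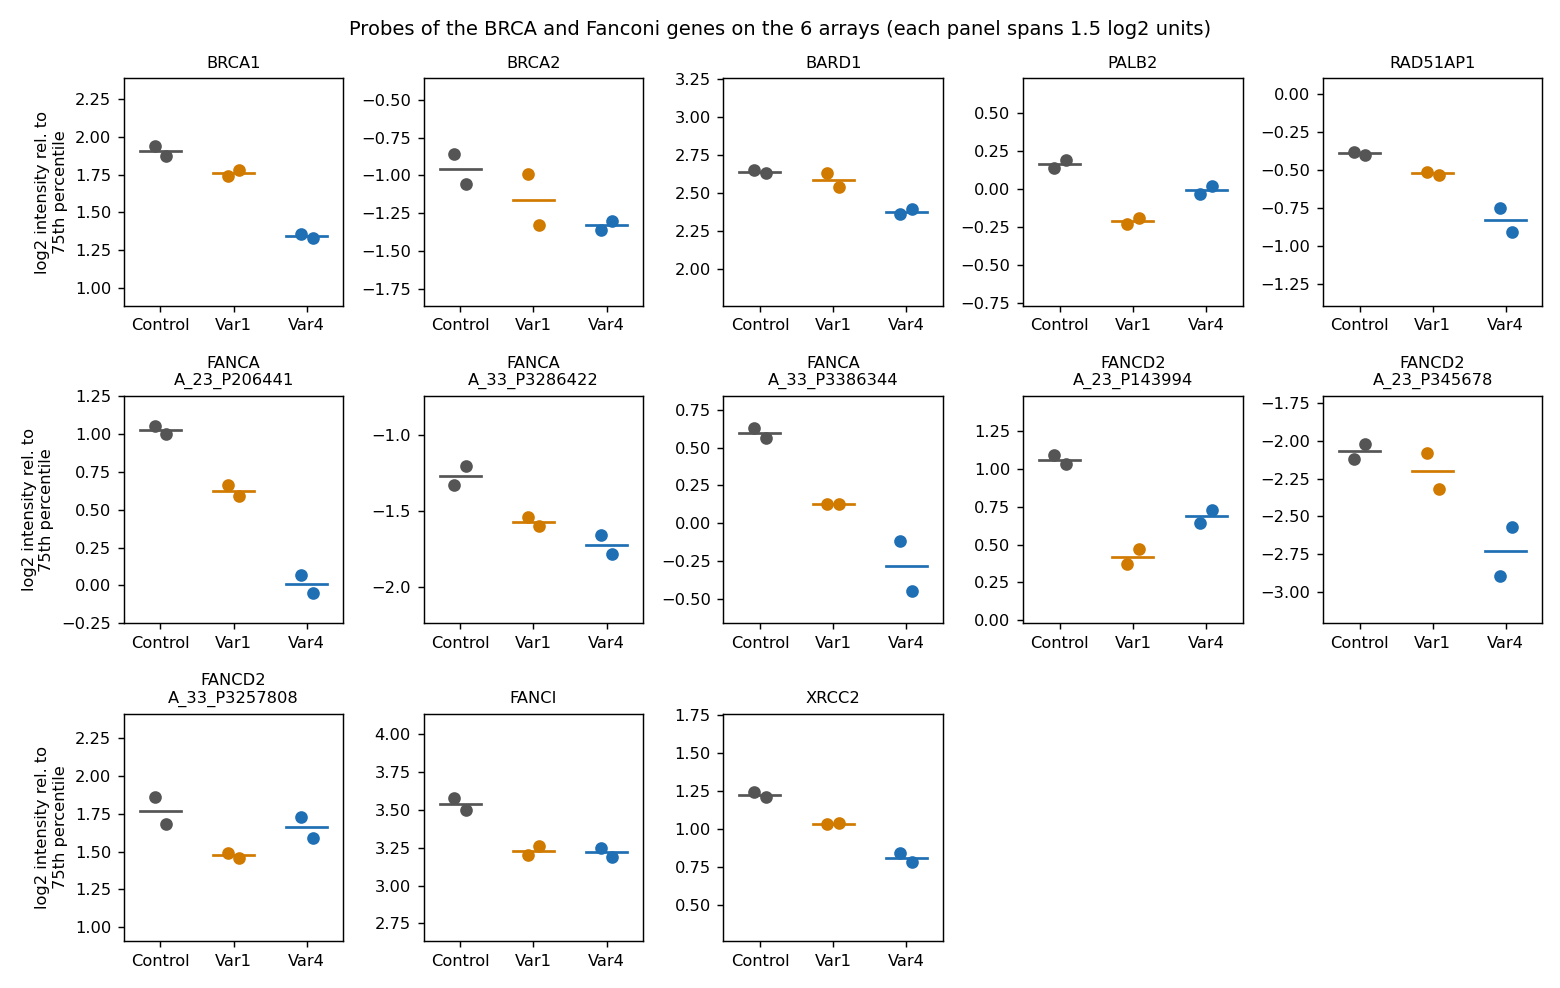
Log2 intensity relative to the array's 75th percentile (y axis) of the 13 member probes on the 6 arrays; each point is an array and each line the mean of a group's 2 arrays. The Control arrays lay above the BT474-Var4 arrays on all probes but FANCD2 A_33_P3257808, and the FANCA probe A_23_P206441 ran from 1.05 on Control A to -0.05 on BT474-Var4 B.

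BRCA1 RNA was lower in BT474-Var4 cells than in both other groups. The BRCA1 probe, which stands on the array as 10 spots, gave log2 values of 1.94 and 1.87 in Control, 1.74 and 1.78 in BT474-Var1 and 1.36 and 1.33 in BT474-Var4 cells. The groups did not overlap, and the steps between them were wider than the distances within them. Repeated spots of the probe had an SD of 0.08 to 0.11 on an array. In BT474-Var4 cells BRCA1 fell by 0.56 on the log2 scale against Control (SE 0.06, 95% confidence interval -0.71 to -0.41, adjusted p = 0.0077), to 67.9% of the Control intensity. In BT474-Var1 cells the difference of -0.15 did not pass the threshold (adjusted p = 0.114, interval -0.30 to 0.00). The call of BT474-Var4 was kept in 13 of 15 alternative analyses and lost without Control A (adjusted p = 0.0532) and without the filter on dim probes (adjusted p = 0.0673).

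BARD1, whose protein pairs with BRCA1 through their RING domains, was called lower in the same comparison. Its values were 2.65 and 2.63 in Control, 2.63 and 2.54 in BT474-Var1, and 2.36 and 2.39 in BT474-Var4 cells. Only the BT474-Var4 arrays stood apart clearly, while the higher BT474-Var1 array lay just under the lower Control array. BARD1 fell by 0.27 in BT474-Var4 cells (SE 0.05, adjusted p = 0.0331), to 83.1% of Control, and its difference in BT474-Var1 cells was -0.06 (adjusted p = 0.463), which turned to 0.04 after quantile normalization. The BT474-Var4 call was lost whichever of the 6 arrays was left out (adjusted p 0.053 to 0.139).

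PALB2, the bridge between BRCA1 and BRCA2, had its lowest values in BT474-Var1 cells. It measured 0.14 and 0.19 in Control, -0.23 and -0.19 in BT474-Var1, and -0.03 and 0.02 in BT474-Var4 cells, so the 3 groups were separate and BT474-Var4 lay in the middle. PALB2 fell by 0.37 in BT474-Var1 cells (SE 0.05, interval -0.51 to -0.23, adjusted p = 0.0106), to 77.3% of Control. In BT474-Var4 cells the difference was -0.17 (interval -0.31 to -0.03, adjusted p = 0.0872). The BT474-Var1 call was lost without Control A, Control B or BT474-Var1 A (adjusted p up to 0.0619).

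BRCA2, which acts with PALB2 at the exposed single strand, passed no threshold in any comparison. Its probe gave -0.86 and -1.06 in Control, -0.99 and -1.33 in BT474-Var1 and -1.36 and -1.30 in BT474-Var4 cells. Control and BT474-Var1 arrays overlapped, and both BT474-Var4 arrays lay below both Control arrays. With an SE of 0.14, shared with 1 FANCD2 probe as the widest among the members, the differences from Control were -0.20 in BT474-Var1 (interval -0.57 to 0.18, adjusted p = 0.336) and -0.37 in BT474-Var4 cells (interval -0.75 to 0.00, adjusted p = 0.125). The latter had an adjusted p of 0.0187 with normexp background correction and of 0.0413 with a trended, robust variance.

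RAD51AP1 and XRCC2, which both assist strand exchange, were both lower in BT474-Var4 cells. RAD51AP1 measured -0.38 and -0.40 in Control, -0.51 and -0.53 in BT474-Var1, and -0.75 and -0.91 in BT474-Var4 cells. XRCC2 measured 1.24 and 1.21 in Control, 1.03 and 1.04 in BT474-Var1, and 0.84 and 0.78 in BT474-Var4 cells. For both genes the 3 groups were separate and BT474-Var1 lay between the others. RAD51AP1 fell by 0.44 in BT474-Var4 cells (SE 0.07, adjusted p = 0.0188), to 73.7% of Control, and differed by -0.13 in BT474-Var1 cells (adjusted p = 0.223). XRCC2 fell by 0.41 in BT474-Var4 cells (SE 0.05, adjusted p = 0.0123), to 75.2% of Control. In BT474-Var1 cells XRCC2 differed by -0.19, at an adjusted p of 0.053 that passed 0.05 in 5 of 15 alternative analyses. Both BT474-Var4 calls were lost without Control A, Control B or BT474-Var4 B (adjusted p up to 0.0931 and 0.0727). The XRCC2 probe may carry sequence of a LINE-1 repeat, which was not tested against a genome, so its values may not be of XRCC2 RNA alone.

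FANCA, the core complex subunit, had the largest member difference in BT474-Var4 cells and was called lower on all 3 of its probes with both variants, 1 of which held under every alternative with variant 4 and none with variant 1. Probe A_23_P206441 (chr16:89804013-89804072, minus strand), listed for transcript variant 1 and spotted 10 times, gave 1.05 and 1.00 in Control, 0.66 and 0.59 in BT474-Var1 and 0.07 and -0.05 in BT474-Var4 cells. Its spots repeated with an SD of 0.04 to 0.08, less than any step between the groups. Probe A_33_P3386344 (chr16:89877116-89877175), listed for the shorter FANCA transcript variant 2, gave 0.63 and 0.56, then 0.13 and 0.13, then -0.12 and -0.45 in the same order of groups. Probe A_33_P3286422 (chr16:89864767-89864823), also listed for that transcript, gave -1.33 and -1.20, then -1.54 and -1.60, then -1.66 and -1.78. On every probe the Control arrays were highest, the BT474-Var1 arrays in the middle and the BT474-Var4 arrays lowest, with no overlap.

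In BT474-Var4 cells FANCA fell by 1.02 on A_23_P206441 (SE 0.07, interval -1.20 to -0.83, adjusted p = 0.00411), to 49.5% of Control, the only member difference of 2-fold or more. The other probes fell by 0.88 (SE 0.12, adjusted p = 0.0137) and 0.46 (SE 0.08, adjusted p = 0.0213). In BT474-Var1 cells the 3 probes fell by 0.40 (SE 0.07, adjusted p = 0.0157), 0.47 (SE 0.12, adjusted p = 0.042) and 0.31 (SE 0.08, adjusted p = 0.0408), to 75.8%, 72.3% and 80.8% of Control. The BT474-Var4 call on A_23_P206441 was kept in all 15 alternative analyses (highest adjusted p 0.0405). The BT474-Var1 calls on all 3 probes were lost without Control A, Control B, BT474-Var1 A or BT474-Var1 B (adjusted p up to 0.158), and that on A_33_P3286422 also without either BT474-Var4 array. By one-way analysis of variance A_33_P3286422 was called with neither variant and A_33_P3386344 not with variant 1, and the variant 1 call on A_33_P3286422 was kept in 4 of 15 alternatives, being lost also with a trended, robust variance. With variant 4, leaving out Control A or Control B ended the call on A_33_P3386344 (adjusted p up to 0.0757), and the call on A_33_P3286422 ended without Control A, Control B, BT474-Var4 A or BT474-Var4 B (highest adjusted p 0.0956).

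FANCD2, a target of the core complex, had 3 probes that ranked the groups differently. Probe A_23_P143994 (chr3:10143006-10143065, plus strand), listed for transcript variant 2 alone, gave 1.09 and 1.03 in Control, 0.37 and 0.47 in BT474-Var1 and 0.64 and 0.73 in BT474-Var4 cells, lowest in BT474-Var1. Probe A_23_P345678 (chr3:10140927-10140986), listed for FANCD2 transcript variant 1 alone, gave -2.12 and -2.02, then -2.08 and -2.32, then -2.89 and -2.57, lowest in BT474-Var4. Probe A_33_P3257808, printed above and listed for both FANCD2 transcripts, gave 1.86 and 1.68, then 1.49 and 1.46, then 1.73 and 1.59, and here the Control and BT474-Var4 arrays overlapped. FANCD2 has pseudogene copies, and how far the probes read them was not tested.

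In BT474-Var1 cells FANCD2 fell by 0.64 on A_23_P143994 (SE 0.07, interval -0.82 to -0.46, adjusted p = 0.00588), to 64.1% of Control, the largest member difference in these cells and the only one called in all 15 alternative analyses. The same comparison gave -0.30 on the shared probe (adjusted p = 0.0668, and 0.00331 to 0.221 over the alternatives) and -0.13 on A_23_P345678 (adjusted p = 0.524). In BT474-Var4 cells FANCD2 fell by 0.37 on A_23_P143994 (SE 0.07, adjusted p = 0.0246) and by 0.66 on A_23_P345678 (SE 0.14, adjusted p = 0.038), while the shared probe differed by -0.11 (interval -0.35 to 0.13, adjusted p = 0.42). The A_23_P345678 call was lost whichever of the 6 arrays was left out (adjusted p 0.0556 to 0.152), after quantile normalization (0.0627) and by one-way analysis of variance (0.101). The BT474-Var4 call on A_23_P143994 ended without Control A, Control B, BT474-Var4 A or BT474-Var4 B (highest adjusted p 0.114).

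FANCI, the partner of FANCD2, was lower in both variants by similar amounts. It gave 3.58 and 3.50 in Control, 3.20 and 3.26 in BT474-Var1, and 3.25 and 3.19 in BT474-Var4 cells. Both variants lay below Control and overlapped each other. FANCI fell by 0.31 with variant 1 (SE 0.06, adjusted p = 0.0213) and by 0.32 with variant 4 (SE 0.06, adjusted p = 0.0269), to 80.6% and 80% of Control. The BT474-Var1 call was lost without either Control or either BT474-Var1 array (adjusted p up to 0.102) and after quantile normalization, and the BT474-Var4 call whichever of the 6 arrays was left out (adjusted p 0.0529 to 0.121).

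**Figure D2:**
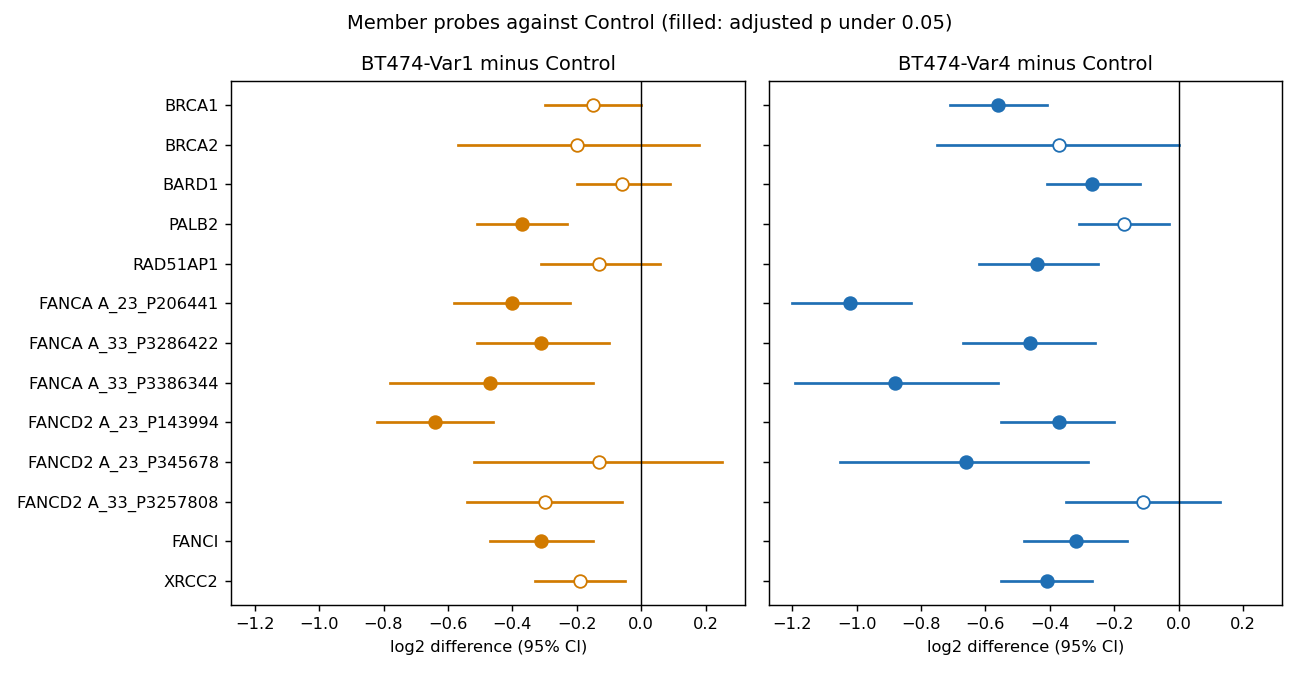
Log2 difference from Control (x axis) of each member probe in BT474-Var1 (left) and BT474-Var4 cells (right); points are limma estimates, bars their 95% confidence intervals, and filled points have an adjusted p under 0.05. All 13 estimates lay below 0 on both sides, with 6 filled on the left and 10 on the right.

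These counts depended on single arrays. Of the 6 calls in BT474-Var1 cells, 1 was kept without Control A, 1 without Control B, 1 without BT474-Var1 A and 2 without BT474-Var1 B, and 5 without either BT474-Var4 array. Of the 10 calls in BT474-Var4 cells, 1 was kept without Control A, 2 without Control B, 5 without BT474-Var4 A and 3 without BT474-Var4 B, and 7 without either BT474-Var1 array. When every probe of the array was tested with no filter on dim probes, 1 call was kept in each comparison with Control, FANCD2 A_23_P143994 in BT474-Var1 cells and FANCA A_23_P206441 in BT474-Var4 cells. The differences themselves kept their sign in all these cases, and of the 26 member differences from Control only that of BARD1 in BT474-Var1 cells turned, after quantile normalization.

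Next, both variants were compared directly, and 6 member probes were called lower and 2 higher with variant 4 than with variant 1, against 20.8% and 20.4% of all tested probes. BRCA1, FANCA, RAD51AP1, BARD1 and XRCC2 RNA was lower with variant 4, and PALB2 RNA was higher. The difference, BT474-Var4 minus BT474-Var1, was -0.41 for BRCA1 (SE 0.06, adjusted p = 0.00777) and -0.62 for FANCA A_23_P206441 (SE 0.07, adjusted p = 0.0048). These calls held without each of the 6 arrays in turn, with an adjusted p of up to 0.0407 and 0.029. Smaller differences were called for RAD51AP1 (-0.31, SE 0.07), XRCC2 (-0.22, SE 0.05) and BARD1 (-0.21, SE 0.05). The opposite sign was called for PALB2, at 0.20 (SE 0.05, adjusted p = 0.0396), where the arrays of BT474-Var4 were both above those of BT474-Var1. FANCD2 was called in both directions, higher in BT474-Var4 cells on A_23_P143994, the probe of FANCD2 transcript variant 2, (0.27, SE 0.07, adjusted p = 0.0352) and lower on A_23_P345678, that of transcript variant 1, (-0.53, SE 0.14, adjusted p = 0.044), with 0.19 on the shared probe (adjusted p = 0.168).

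The other probes of FANCA differed by -0.41 (adjusted p = 0.0513) and -0.15 (adjusted p = 0.177), BRCA2 by -0.18 (interval -0.55 to 0.20) and FANCI by -0.01 (interval -0.17 to 0.15). The calls on BARD1, PALB2, XRCC2 and FANCD2 A_23_P143994 were lost whichever of the 6 arrays was left out (adjusted p up to 0.139, 0.14, 0.111 and 0.129). That on RAD51AP1 was kept without BT474-Var4 A alone, and that on FANCD2 A_23_P345678 without BT474-Var4 B alone (adjusted p up to 0.0982 and 0.153 in the others). Without the filter on dim probes only the FANCA call was kept, at an adjusted p of 0.036.

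**Figure D3:**
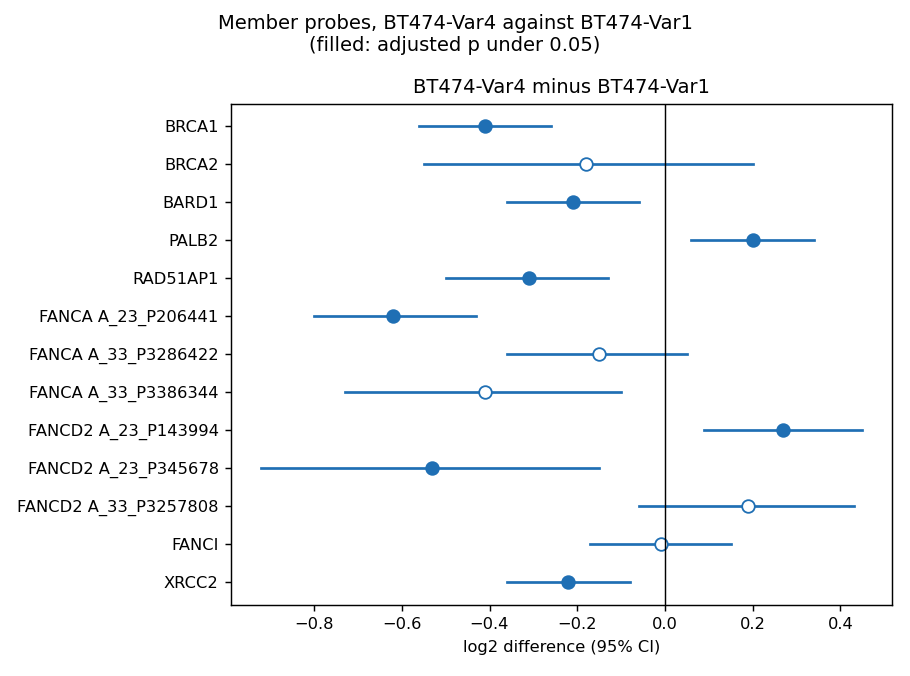
Log2 difference between BT474-Var4 and BT474-Var1 cells (x axis) of each member probe; points are limma estimates, bars 95% confidence intervals, and filled points have an adjusted p under 0.05. FANCA A_23_P206441 lay lowest at -0.62, and PALB2 at 0.20 and FANCD2 A_23_P143994 at 0.27 were the filled points above 0.

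The rest of the pathway was examined with 76 other repair genes in 6 lists, 1 probe per gene, of which 75 were tested. In BT474-Var1 cells 30 were called lower and 6 higher than in Control, with a median difference of -0.19, and in BT474-Var4 cells 28 and 2, with a median of -0.22. These counts, and those of each list below, stand beside the shares of all tested probes called lower and higher, 20.3% and 14.1% with variant 1 and 14.3% and 9.86% with variant 4, and medians over all of -0.04 and -0.08. Without Control A, Control B, BT474-Var1 A or BT474-Var1 B the count lower in BT474-Var1 cells was 14, 13, 19 and 20, and in BT474-Var4 cells it was 4 without either Control array, 7 without either BT474-Var4 array and 17 without either BT474-Var1 array. Without the filter on dim probes 3 and 1 genes were called lower.

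Among 20 genes of the Fanconi core complex and of the regulation of FANCD2 and FANCI, 6 were called lower and 3 higher in BT474-Var1 cells and 7 and 1 in BT474-Var4 cells, with medians of -0.16 and -0.19. UBE2T, the E2 enzyme that hands ubiquitin to FANCD2, fell by 0.46 with variant 1 (adjusted p = 0.00868) and by 0.61 with variant 4 (adjusted p = 0.00744). FANCM, the translocase that anchors the core complex to DNA, fell by 0.43 and 0.44 (adjusted p = 0.00778 and 0.0109). FANCE, the subunit that contacts FANCD2, fell by 0.50 in BT474-Var1 cells (adjusted p = 0.00664) and differed by -0.20 in BT474-Var4 cells (adjusted p = 0.0711). In the other direction, C17orf70, the gene of the core complex protein FAAP100, rose by 1.01 in BT474-Var1 cells (adjusted p = 0.0038) with a difference of 0.17 in BT474-Var4 cells, and the nuclease gene ERCC4 rose by 0.59 and 0.77 (adjusted p = 0.00799 and 0.00704) on 1 of its 2 tested probes. The other gene called higher with variant 1 was FAN1. On probes that the count leaves out, ERCC1 was called higher with both variants (0.20 and 0.21) and FANCF lower with variant 1 (-0.31), each on 1 of 2.

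Among the genes of strand exchange, RAD54L, the gene of a DNA motor protein, fell by 0.56 and 1.04 (adjusted p = 0.00734 and 0.00388) and RAD51C by 0.40 and 0.67 (adjusted p = 0.00989 and 0.00566). SHFM1, whose small protein binds BRCA2, fell by 0.55 and 0.24 (adjusted p = 0.00538 and 0.0409). XRCC3, whose protein pairs with that of RAD51C, was called higher with variant 1 on 1 of 2 probes (0.25, adjusted p = 0.0283), the other being at -0.18, and with variant 4 both were called lower, at -0.24 and -0.74. RAD54B was called higher with variant 1 on 1 of 2 probes (0.55), but not on the brighter one, which was counted (-0.10). The 9 partners of BRCA1 were mixed, with 3 lower and 2 higher in BT474-Var1 cells and 1 of each in BT474-Var4 cells. TOPBP1 fell by 0.83 and 0.33 (adjusted p = 0.00375 and 0.0243) and BABAM1 by 0.44 with variant 1 (adjusted p = 0.00724), where UIMC1 was the other gene called lower and BRIP1 the other called higher, and where BRCC3 was called lower on 2 of its 3 probes (down to -0.96) but not on the brightest one, which was counted (-0.01), while BAP1 rose by 0.30 with variant 1 (adjusted p = 0.0269) and BRE by 0.52 with variant 4 (adjusted p = 0.0126).

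Of 13 genes of end resection, the step that exposes single strands, and of the dissolution of joined strands, 7 were called lower in each variant. This joint list is named end resection below. EXO1, a resecting exonuclease, fell by 0.45 and 0.35 (adjusted p = 0.00651 and 0.015), the helicase gene BLM by 0.36 and 0.58 (adjusted p = 0.0109 and 0.00634), its partner RMI2 by 0.49 and 0.35 (adjusted p = 0.00635 and 0.0172), and RPA2 by 0.43 in BT474-Var1 cells (adjusted p = 0.00655). Of 11 damage signaling genes 4 and 6 were called lower. H2AFX, the histone phosphorylated at breaks, fell by 0.68 and 0.61 (adjusted p = 0.0047 and 0.00721), CHEK1 by 0.46 and 0.22 (adjusted p = 0.00606 and 0.0385), and CHEK2 by 0.67 in BT474-Var4 cells (adjusted p = 0.006), where all 4 of its probes were called. ATRIP differed by -0.72 and -0.76 (adjusted p = 0.0162 and 0.0208) on 1 of 2 probes and was not called on the other. The remaining call with variant 1 was TP53BP1. On probes that the count leaves out, ATM was called higher with variant 1 on 1 of 3, all 3 lying at 0.48 to 0.65. In the same comparison CHEK2 was called lower on 1 of 4, its probes lying at -0.53 to -0.06. Of 9 tested end joining genes, 5 were called lower in BT474-Var1 cells, DCLRE1C, POLQ, PARP1 (-0.47, adjusted p = 0.00644, with another of its probes called higher at 0.74), XRCC5 (-0.45, adjusted p = 0.00717) and PRKDC (-0.66, adjusted p = 0.0151), and in BT474-Var4 cells POLQ was (-0.35, adjusted p = 0.0157), as was a second probe of PRKDC that the count leaves out.

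Recombination genes are transcribed with the cell cycle, so E2F factors and proliferation markers were placed beside them. Of 20 proliferation markers, 11 were called lower with variant 1 and 15 with variant 4, with medians of -0.26 and -0.40. The medians over all 13 member probes, several of them of FANCA and FANCD2, were -0.30 and -0.41. With 1 probe per gene, as in the lists, the middle member was BRCA2, at -0.20 and -0.37. The summed level of the 20 proliferation markers, as a multiple of the 75th percentile, was 910 to 923 on the Control, 736 to 755 on the BT474-Var1 and 675 to 695 on the BT474-Var4 arrays. MKI67, the gene of Ki67, fell by 0.58 and 0.77 (adjusted p = 0.00724 and 0.00629), CCNA2 by 0.55 and 0.50 (adjusted p = 0.0047 and 0.00688), CCNB1 and AURKA by 0.66 and 0.57 in BT474-Var1 cells (adjusted p = 0.00496 and 0.00624), and RRM2 by 0.73 in BT474-Var4 cells (adjusted p = 0.00749). MKI67 was called lower on 2 of its 3 probes with each variant, its smallest differences being -0.16 and -0.31. PCNA differed by -0.17 (adjusted p = 0.129) and -0.25 (adjusted p = 0.0702). Without Control A or Control B, 6 markers were called lower in BT474-Var1 cells each time, and in BT474-Var4 cells the counts were 2 and 1; without BT474-Var1 A or B the former were 6 and 7, and without BT474-Var4 A or B the latter were 8 and 5. After quantile normalization 7 were called lower in BT474-Var1 cells, and the median of the markers there was -0.14. The median over all 13 member probes was then -0.27, and with 1 probe per gene the middle member was FANCI, at -0.19. The part of proliferation in the differences of the repair genes was not tested.

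Of 13 E2F and retinoblastoma family genes, 6 were called lower in BT474-Var1 cells, and 5 were called lower and 1 higher in BT474-Var4 cells, against 20.3% of all tested probes called lower with variant 1 and 14.3% lower and 9.86% higher with variant 4. E2F1 fell by 0.32 (adjusted p = 0.0189) and 0.51 (adjusted p = 0.0101), its dimerization partner TFDP1 by 0.47 and 0.55 (adjusted p = 0.00771 and 0.00832), E2F8 by 0.77 and 0.35 (adjusted p = 0.00341 and 0.0149) and E2F3 by 0.69 and 0.32 (adjusted p = 0.00445 and 0.0243). E2F4 was the other gene called lower with variant 4. TFDP1 was called on 1 of its 2 probes with each variant, as was E2F3 with variant 4. With variant 1, E2F6 was called lower on 2 of its 3 probes and higher on 1 (0.51). RB1, the inhibitor of E2F1, differed by 0.19 with variant 1 (adjusted p = 0.0531) and rose by 0.32 with variant 4 (adjusted p = 0.021). No gene of the list was called higher there once Control A, Control B, BT474-Var4 A or BT474-Var4 B was left out. Without Control A, Control B or BT474-Var1 A, 2, 4 and 4 of these genes were called lower in BT474-Var1 cells; in BT474-Var4 cells limma called 0 without Control A or Control B (6 and 4 at an unadjusted p under 0.05), 2 without either BT474-Var4 array and 3 without either BT474-Var1 array.

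**Figure D4:**
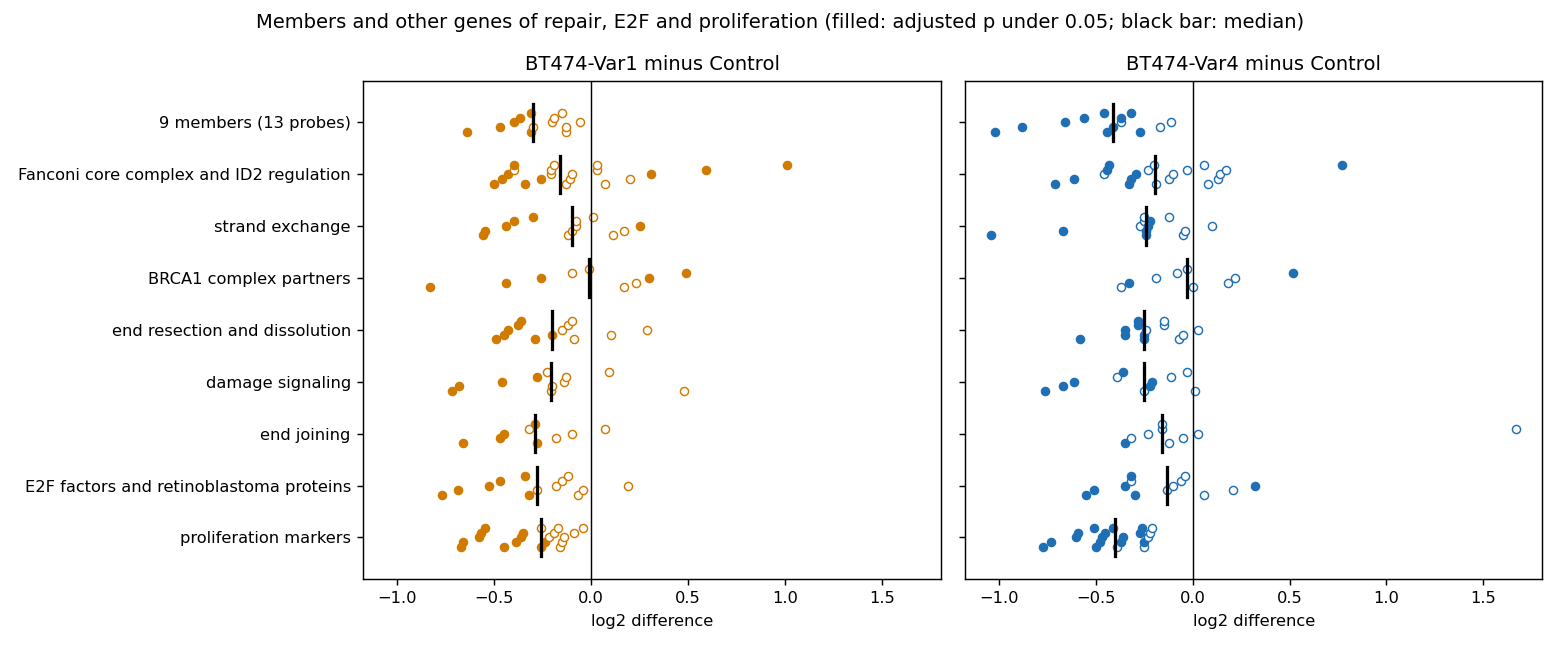
Log2 difference from Control (x axis) in BT474-Var1 (left) and BT474-Var4 cells (right) of the 13 member probes and of the genes of 8 lists, 1 probe per gene; filled points have an adjusted p under 0.05 and black bars mark medians. The medians of the 13 member probes, several of them of FANCA and FANCD2, were -0.30 and -0.41. Those of the 8 lists, with 1 probe per gene, ran from -0.29 to -0.01 with variant 1 and from -0.40 to -0.03 with variant 4. The members and the lists were thus not counted alike.

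Promoter sequences were read from RefSeq (GRCh38.p14, a build other than that of the probes) for the 8 members with an entry, as windows of 300 bases around 9 start sites. An E2F word (TTTCCCGC, TTTGGCGC, TTTGCCGC or TTTCGCGC on either strand) stood in the windows of FANCA, FANCD2 and XRCC2, 3 of 8 members, against 3.31% of 35116 windows. CCAAT on either strand stood in windows of BRCA1, PALB2, RAD51AP1 and FANCA, 4 members, against 34.6% of all windows, and the CHR words TTTGAA and TTCGAA in 0 of 8, against 16.4%. Members were counted by gene, with a match in any of their 9 windows, and the shares by single window, so the counts are not alike. The upstream sequence of FANCA, the member with the largest difference, is printed up to the start site (chr16:89816648-89816897, minus strand, 5' to 3'), with the E2F word in capitals.
FANCA upstream: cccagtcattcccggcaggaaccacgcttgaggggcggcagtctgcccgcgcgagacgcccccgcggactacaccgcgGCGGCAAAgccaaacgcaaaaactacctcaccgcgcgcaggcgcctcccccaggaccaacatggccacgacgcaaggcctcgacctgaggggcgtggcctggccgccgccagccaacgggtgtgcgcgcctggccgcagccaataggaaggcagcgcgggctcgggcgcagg
The word lies at positions -172 to -165 from the start site and a CCAAT box at -33 to -29. In FANCD2 the word spans the start site itself, from -2 to 6. These are matches of letters, and no binding was measured.

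Profiles over the 6 arrays were also compared with the mean of the members. This mean, over 1 probe per member centered on its own average, was 0.25 and 0.18 on the Control, 0.00 and -0.04 on the BT474-Var1 and -0.17 and -0.22 on the BT474-Var4 arrays. XRCC2 lay closest to it, at a root mean square distance of 0.028, and FANCA farthest, at 0.26. Among 22807 other tested probes with a gene symbol, the 5 nearest were those of the histone genes HIST1H4E (distance 0.019, r = 0.999 over 6 arrays) and HIST1H3G (0.021), of ZFP36L1, which encodes an RNA-binding protein (0.02), of the noncoding RNA SNHG5 (0.022) and of FANCC, another subunit of the Fanconi core complex (0.023). FANCC fell by 0.26 with variant 1 (adjusted p = 0.0418) and by 0.43 with variant 4 (adjusted p = 0.0182) on that probe, while its other probe differed by -0.22 and -0.16 and was not called.

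Markers of other cell types were read as well, 7 of 8 listed genes having probes. KRT5 and COL3A1 were not above background on any array. None of the 3 PECAM1 probes entered the test, and 1 was at -1.34 on BT474-Var1 B but at -5.60 or lower on the other arrays. VIM was well above background throughout and fell by 1.03 in BT474-Var1 cells (adjusted p = 0.00396), and COL1A1 rose by 0.34 and 1.03 (adjusted p = 0.0116 and 0.00293). KRT14 had 2 tested probes, each well above background on 4 of 6 arrays. On 1 of them the variants lay 1.35 and 1.02 above Control, where it was not well above background on either array (-4.39 and -4.48). This probe entered the test through the variant arrays alone, so these are differences from background. Of 5 PTPRC probes, 2 were well above background on all 6 arrays, neither of them called in these comparisons. Another 2 were not above background on any array, and 1 was on 1 array alone (-2.81 on BT474-Var1 A). The summed level of these genes was 19.9 to 20.8 on the Control, 12.1 to 12.8 on the BT474-Var1 and 24.8 to 27.4 on the BT474-Var4 arrays, and that of the 9 luminal markers 2130 to 2160, 2670 to 2710 and 2080 to 2090. Of the luminal markers, EPCAM, FOXA1 and CDH1 fell with variant 1 by 0.66, 0.50 and 0.47 (adjusted p = 0.00523, 0.00528 and 0.00588), and KRT19, the brightest of them, KRT8 and ERBB2 rose by 0.62, 0.32 and 0.22 (adjusted p = 0.00445, 0.0224 and 0.0296). With variant 4, FOXA1 differed by -0.40 and ESR1 by -0.47 (adjusted p = 0.0108 and 0.0176). FOXA1 was called on 1 of its 2 probes with each variant, the other being at -0.05 and -0.36. The parts of other probes of the luminal markers are not given here. The part of these marker genes in the member differences was not tested.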

How the data were processed

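RNA (100 ng per array) was labeled with Cy3 and hybridized by the authors to one-color Agilent arrays, whose spots they quantified with Feature Extraction 11.5.1.1. The deposited scanner files hold background-subtracted processed intensity per spot, not normalized between arrays. The deposited log2 table holds the authors' values after a shift to each array's 75th percentile in GeneSpring, and every column of it matched its own array. The headers name design 072363 and hg19, another design than the methods.

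Here log2 intensity less the 75th percentile of the non-control probes was used, outlier spots were left out and spots of a probe averaged. Probes detected well above background by arrays A and B of 1 or more groups entered the test in R 4.3.3 with limma 3.58.1, a mean per group over all 6 arrays (3 residual and 1.53 prior degrees of freedom) and Benjamini-Hochberg adjustment over 31865 probes. With 2 arrays per group, their number limits the precision, and an exact permutation test could not reach 0.05. For the other lists the tested probe with the highest mean stood for a gene. Named were all member probes, CHEK1, E2F1, MKI67 and PCNA, up to 3 called genes of smallest adjusted p per list and comparison with Control, and the 5 nearest profiles; RB1, second probes and the marker genes of cell types were added after their values were seen, as were XRCC3 and other genes that complete a short count. Results on 1 further gene are not reported here. The members and lists were chosen with earlier results of these data known.

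The alternatives were normexp background correction (offset 50), quantile normalization, the deposited table, no filter or a filter on all 6 arrays, a trended and robust eBayes, the replicate letter as a block, a fit of the compared groups alone, a one-way analysis of variance as in the methods, each array left out (the lone array then assumed to vary like the others) and the mean over a gene's probes. The pipeline was tested on simulated data.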

Additional observations from a re-analysis of the deposited data

Results flagged for a closer look

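For 8 of 13 member probes a difference was called in the direct test of BT474-Var4 against BT474-Var1 (limma, adjusted over all tested probes). Of these, 6 were lower and 2 higher, where 20.8% of all tested probes were called lower and 20.4% higher. Apart from FANCA A_23_P206441 and BRCA1, these calls depended on single arrays, as described above. Lower in BT474-Var4 cells on both arrays were FANCA A_23_P206441 (-0.62, adjusted p = 0.0048), FANCD2 A_23_P345678 (-0.53, adjusted p = 0.044), BRCA1 (-0.41, adjusted p = 0.00777), RAD51AP1 (-0.31, adjusted p = 0.0262), XRCC2 (-0.22, adjusted p = 0.0297) and BARD1 (-0.21, adjusted p = 0.0398). Higher on both arrays were FANCD2 A_23_P143994 (0.27, adjusted p = 0.0352) and PALB2 (0.20, adjusted p = 0.0396). With 2 arrays per group no array could be tested as an outlier.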

How the results depend on the processing

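Tested without a filter on dim probes, 2672 probes were called in BT474-Var1, 722 in BT474-Var4 and 5112 between the variants, against 10962, 7712 and 13117, and 1 member probe in each comparison, against 6, 10 and 8; the lists then held 1 (Fanconi core), 2 (strand exchange), 1 (BRCA1 partners), 0 (end resection), 1 (damage signaling), 0 (end joining), 2 (E2F) and 4 (proliferation) genes called by limma in either variant, against 12, 7, 6, 9, 7, 5, 8 and 17. At an unadjusted p under 0.05, end resection held 8 and end joining 7. The cause was not tested.

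The replicate letters do not pair the arrays (same-letter deviations correlated at -0.02 to 0.04). With the letter as a replicate block, 4905 probes were called in BT474-Var4 cells, with 5 member probes there, 3 member probes between the variants and 3 BRCA1 partners. Fitting only the groups compared left 2 member probes between the variants, and the one-way analysis of variance 5; damage signaling then counted 4 genes, as it did after quantile normalization. With the mean over a gene's probes, end joining counted 3.

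Leaving out each array in turn gave 4174 to 9406 probes in BT474-Var1, 1502 to 5473 in BT474-Var4 and 8090 to 10690 between the variants, with 1 to 5, 1 to 7 and 2 to 4 member probes. The lists counted 3 to 11 (Fanconi core), 3 to 5 (strand exchange), 2 to 5 (BRCA1 partners), 4 to 6 (end resection), 3 to 5 (damage signaling), 3 to 5 (end joining), 2 to 6 (E2F) and 6 to 13 genes (proliferation).

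Only differences near 0 turned: BARD1 in BT474-Var1 cells after quantile normalization (0.04), and FANCI between the variants with normexp (0.04) and, of its leave-one-out range of -0.04 to 0.02, without BT474-Var1 B or BT474-Var4 B (0.02 each). The dimmest member probe, FANCD2 A_23_P345678, had intensities of 15 to 26.1 units.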
